A study of Mus musculus with 20 samples.

Results

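The interleukin-1 (IL-1) and inflammasome genes described here were 10 genes chosen by symbol from the gene count files of bone marrow neutrophils. They were the cytokines Il1b, Il1a and Il18, the antagonist Il1rn, the receptors Il1r2 and Il1rap, the sensor Nlrp3, the caspases Casp1 and Casp4, and the pore-forming protein Gsdmd. All 10 were found among the 24421 genes of the files, and all 10 were among the 14030 genes with enough counts to be tested.

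Neutrophils were taken from the bone marrow of 4 groups of 5 female mice by magnetic negative selection, and each mouse gave 1 library of poly(A) RNA. WT mice were C57BL/6J animals that were bought in, and Bmal1 Mye-/- mice (labelled KO, and called KO below) carried floxed alleles of Bmal1 together with LysMCre, a Cre recombinase placed at Lyz2. Cre therefore acts in neutrophils, monocytes and macrophages alike, and WT mice carried neither Cre nor floxed alleles, so that the loss of Bmal1, the Cre insertion and the breeding background cannot be told apart. In each genotype 1 group was untreated and 1 group received imiquimod (IMQ, an agonist of Toll-like receptors 7 and 8) as a 5% cream on both ears 3 times per week for 6 weeks, starting at 8 to 10 weeks of age.

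IL-1β and IL-18 are made as inactive precursors and are matured by caspase-1, which is activated on inflammasomes, complexes that a sensor such as NLRP3 builds with the adaptor ASC. Transcription of Il1b and Nlrp3 is the priming step of this pathway, driven by NF-κB, and the cleavage that follows does not show in RNA. Neutrophils both produce IL-1β and carry a large amount of the decoy receptor IL-1R2, and BMAL1 is a circadian transcription factor that binds the E-box CACGTG together with CLOCK.

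Libraries held between 30782166 and 92613500 reads on genes (median 66094896), and values are given in CPM, gene counts corrected for library size with the TMM factors of edgeR. The label KO was checked on Lyz2, the gene that the Cre insertion interrupts, which lay between 2465 and 12033 CPM in the 10 WT libraries and between 58.8 and 177 CPM in the 10 KO libraries. Bmal1 itself, listed as Arntl, was low everywhere and overlapped between genotypes, at 0.562 to 1.87 CPM in WT and 0.337 to 1.52 CPM in KO. Its means were 1.35 CPM in untreated WT and 0.721 in untreated KO, and 1.11 and 0.702 CPM with IMQ. The highest KO value was that of KO IMQ replicate 1. The count of a gene does not separate its floxed exon from the others, and Lyz2 bears on the Cre insertion only. Neutrophil-defining markers summed to between 129221 and 152382 CPM in the untreated libraries, to between 103287 and 163395 in WT IMQ and to between 72876 and 152195 in KO IMQ (11 of 12 listed genes, with Ly6g not analysed here). WT IMQ replicate 3, KO IMQ replicate 1 and KO IMQ replicate 5 had the lowest sums of 10 late neutrophil markers (called the 3 low libraries). Calls and signs of the 10 genes that changed without them are given both ways. For other pathway genes, some of the values without them are given.

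The stretches before the transcription start are shown for the 3 genes whose RNA fell with IMQ in KO mice (Il1b, Il1rn and Nlrp3) and for the 2 genes whose stretch held an E-box (Il1r2 and Casp1). They were read from RefSeq promoters of GRCm38.p6, which matched 9 of the 10 genes, with Gsdmd unmatched. Each is written 5′ to 3′ on the strand of its gene and holds no annotated exon of the gene. The start of Il1r2 in RefSeq is an internal one, so its stretch lies inside the annotated gene, downstream of the first start. Capitals mark the motifs searched on both strands, namely the E-box CACGTG and the PU.1 type GAGGAA, which reads TTCCTC on the other strand. The positions are chr2:129371140-129371389 on the minus strand for Il1b and, on the plus strand, chr2:24336610-24336852 for Il1rn, chr11:59541319-59541567 for Nlrp3, chr1:40085843-40085984 for Il1r2 and chr9:5298267-5298516 for Casp1.
Il1b: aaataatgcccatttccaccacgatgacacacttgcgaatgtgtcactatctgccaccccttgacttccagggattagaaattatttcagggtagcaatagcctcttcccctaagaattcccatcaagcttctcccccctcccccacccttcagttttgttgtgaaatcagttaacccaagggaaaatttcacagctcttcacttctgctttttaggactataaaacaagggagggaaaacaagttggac
Il1rn: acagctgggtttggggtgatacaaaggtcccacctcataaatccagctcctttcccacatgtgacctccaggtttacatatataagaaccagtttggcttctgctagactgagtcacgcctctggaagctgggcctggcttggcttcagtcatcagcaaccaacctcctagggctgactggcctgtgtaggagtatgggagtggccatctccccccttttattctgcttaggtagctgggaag
Nlrp3: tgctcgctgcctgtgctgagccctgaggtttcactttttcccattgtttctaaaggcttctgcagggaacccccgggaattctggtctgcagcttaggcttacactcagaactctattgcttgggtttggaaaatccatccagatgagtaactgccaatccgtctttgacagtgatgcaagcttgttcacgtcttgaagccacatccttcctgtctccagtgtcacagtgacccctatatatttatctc
Il1r2: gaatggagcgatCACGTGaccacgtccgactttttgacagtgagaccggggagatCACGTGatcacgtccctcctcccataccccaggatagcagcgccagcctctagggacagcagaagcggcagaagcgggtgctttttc
Casp1: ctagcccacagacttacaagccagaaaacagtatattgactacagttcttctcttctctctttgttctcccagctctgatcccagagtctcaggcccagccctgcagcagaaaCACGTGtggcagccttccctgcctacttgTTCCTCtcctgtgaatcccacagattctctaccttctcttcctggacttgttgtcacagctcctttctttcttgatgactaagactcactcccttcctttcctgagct

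Within 250 bases before a start, an E-box was present in 6.02% of 32851 RefSeq promoters. Among the 13 promoters of the 9 matched genes it was present in 2, with 2 copies at Il1r2 (beginning 238 and 195 bases before the start) and 1 copy at Casp1 (137 bases before the start). The PU.1 type, named for a factor of myeloid cells, was found in 23.3% of all promoters and in at least 1 promoter of Il1a, Nlrp3 and Casp1, and at Nlrp3 it was found 3 times before a second start and not in the stretch shown. An NF-κB type (GGGA, any 2 bases, then TTCC) and a C/EBP type (TTGCNNAA) were present in 1.21% and 9.56% of all promoters and were not found in these 13. A match of letters describes a sequence and is not a binding site.

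In untreated WT neutrophils the 10 genes spanned a wide range of levels per length, given here as CPM per kilobase of merged exons (means of 5 libraries). Il1b stood at 201 and Il1r2 at 141, and the libraries of these neighbours overlapped. They were followed by Gsdmd at 62.0 (59.5 to 65.1), Nlrp3 at 52.9 (45.6 to 59.0) and Il1rn at 49.6 (43.9 to 55.9), of which Nlrp3 and Il1rn overlapped. Casp1 was at 31.3 (26.7 to 36.7), Casp4 at 7.57 (7.07 to 8.16) and Il1rap at 4.99 (4.30 to 5.88). The 2 cytokines besides Il1b were far lower, with Il18 at 2.19 (1.72 to 2.69) and Il1a at 0.397 (0.293 to 0.468). Il1b was thus the most abundant of these 3 cytokine RNAs, and other cytokines were not ranked. Il1rap may be understated on this scale, since its merged exons reach 11.36 kilobases and a cell need not use all of them.

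The design asks whether IMQ changed these genes in each genotype and whether the genotypes differed. With IMQ, 3 of the 10 genes fell in KO mice, namely Il1b, Il1rn and Nlrp3, and none rose, at an adjusted p-value under 0.05 in the quasi-likelihood test of edgeR, adjusted over all tested genes after Benjamini and Hochberg. In the same comparison 23.5% of all tested genes were called, and 9.04% were called lower. The same 3 genes had KO IMQ libraries that all lay below the KO untreated libraries, where 20.1% of all genes had groups that did not overlap in either direction. In WT mice 0 of the 10 were called with IMQ, beside 3.95% of all genes, and 0 had groups that did not overlap, beside 6.43%. At an unadjusted p under 0.05 there was 1 of 10 in WT (Casp4) and 4 of 10 in KO, beside 3129 and 5518 of all 14030 genes, and DESeq2 called 0 and 4, beside 1480 and 4190 of all genes. The median log2 fold change of the 10 genes was −0.03 in WT and −0.38 in KO, while over all genes it was 0.03 and 0.02.

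**Figure D1:**
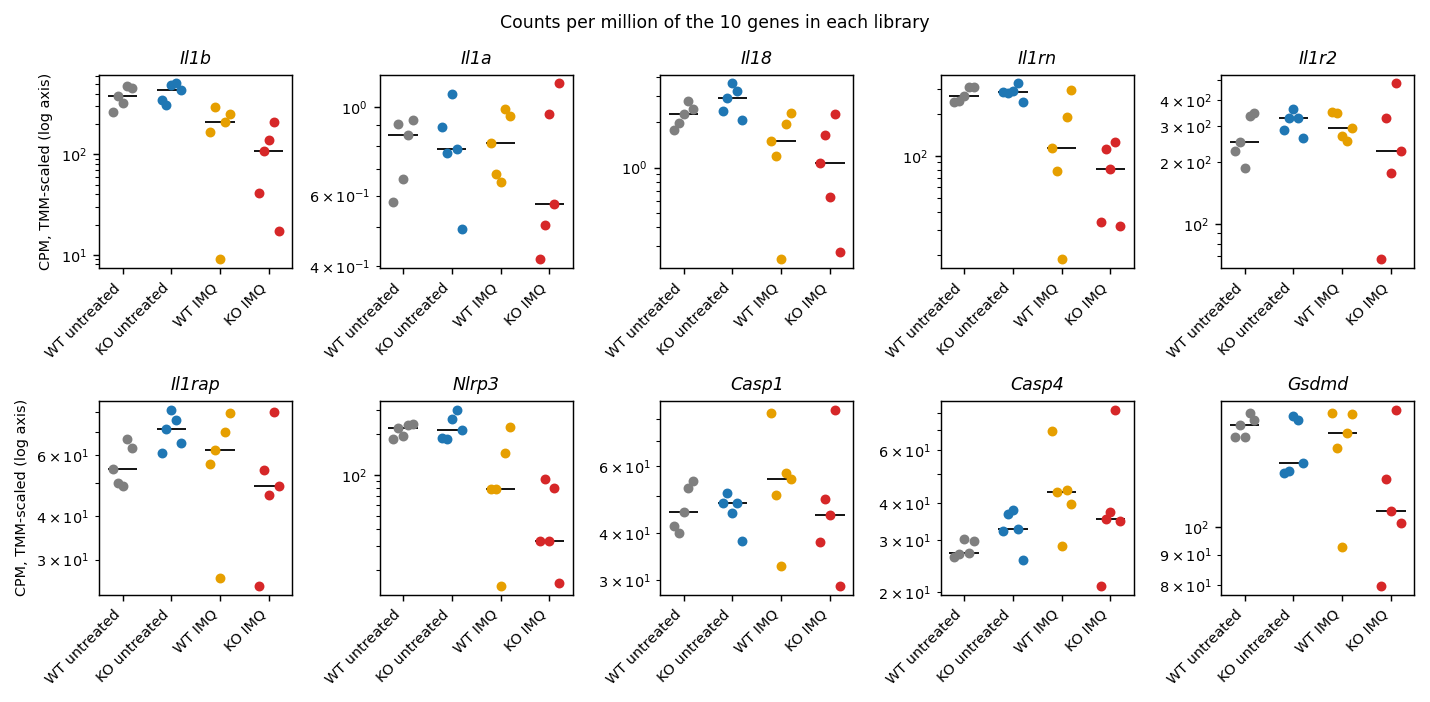
Level of each of the 10 genes in every library, as TMM-scaled CPM on log axes whose range differs between panels. Points are single mice in the order of replicates 1 to 5, and the bar is the group median. The red KO IMQ points of Il1b, Il1rn and Nlrp3 lie below all blue KO untreated points, and 1 WT IMQ mouse lies at 8.97 CPM of Il1b.

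Il1b (chr2:129364570-129371139 of mm10, minus strand) encodes the precursor of IL-1β. In untreated WT mice it was at 266, 384, 328, 482 and 456 CPM in replicates 1 to 5, and in untreated KO mice at 346, 310, 491, 510 and 437 CPM. With IMQ it was at 167, 298, 8.97, 209 and 252 CPM in WT, and at 41.6, 108, 138, 211 and 17.4 CPM in KO. All 5 KO IMQ mice were below the lowest untreated KO mouse, whereas in WT replicate 2 remained within the untreated range. In KO mice Il1b fell by 2.02 on the log2 scale with IMQ (standard error 0.62, adjusted p = 0.0275, quasi-likelihood test of edgeR with Benjamini-Hochberg adjustment), from 419 ± 88.2 to 103 ± 77.3 CPM (SD, n = 5 each). This call did not hold in all fits that left out a single library: it was lost without KO untreated replicate 4 (adjusted p = 0.0602), KO IMQ replicate 1 (adjusted p = 0.0653) or KO IMQ replicate 5 (adjusted p = 0.0579), with log2 fold changes of −1.94, −1.81 and −1.75. Without the 3 low libraries it was −1.46 (adjusted p = 0.00635). In WT mice the log2 fold change was −1.03 (standard error 0.60, adjusted p = 0.329), from 383 ± 89.3 to 187 ± 111 CPM (SD, n = 5 each), and without the 3 low libraries −0.74 (adjusted p = 0.0490).

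The other 2 cytokines were scarce. Il18 (chr9:50554827-50581840, plus strand), a cytokine that drives interferon-γ production, was at 1.78, 1.98, 2.28, 2.78 and 2.47 CPM in untreated WT and at 2.39, 2.90, 3.64, 3.26 and 2.09 CPM in untreated KO mice. With IMQ it was at 1.5, 1.2, 0.245, 1.95 and 2.32 CPM in WT, and at 1.08, 1.66, 0.639, 2.27 and 0.276 CPM in KO. The groups overlapped in both genotypes, in KO only through replicate 4, and its counts went down to 14 reads in a library. The log2 fold change in KO was −1.27 (standard error 0.47, adjusted p = 0.0581). With the replicate number as an additive block over all 20 libraries, it was −1.41 (adjusted p = 0.0496) and passed the threshold. In WT it was −0.64 (standard error 0.47, adjusted p = 0.449). Il1a (chr2:129299610-129309972, minus strand), an alarmin that is active without cleavage, lay between 0.415 and 1.14 CPM over all 20 libraries, with 22 to 87 reads. Its log2 fold change with IMQ was 0.06 in WT and −0.15 in KO (standard error 0.29 for each, adjusted p = 0.728 in KO), and its exons share 222 bases with Gm14023 on the opposite strand.

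Il1rn (chr2:24336853-24351494, plus strand) encodes the IL-1 receptor antagonist, which occupies the receptor without signalling. It was at 243, 245, 267, 310 and 307 CPM in untreated WT mice and at 285, 281, 289, 327 and 241 CPM in untreated KO mice. With IMQ it was at 113, 77.9, 18.4, 188 and 292 CPM in WT, and at 34.1, 113, 81.1, 127 and 31.7 CPM in KO. Every KO IMQ mouse was below every untreated mouse, while in WT replicate 5 was within the untreated range and the other 4 were below it. In KO mice Il1rn fell by 1.88 on the log2 scale (standard error 0.49, adjusted p = 0.0138), from 285 ± 30.7 to 77.2 ± 43.7 CPM (SD, n = 5 each), and it passed in 20 of 20 fits that left out a library. In WT the log2 fold change was −0.99 (standard error 0.48, adjusted p = 0.226), from 274 ± 32.5 to 138 ± 106 CPM (SD, n = 5 each), and without WT IMQ replicate 5 it was −1.46 and was called (adjusted p = 0.0463).

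In KO mice the cytokine and its antagonist were both lower with IMQ, whereas in WT they parted in some mice. WT IMQ replicate 2 had Il1b at 298 CPM, within the untreated range, and Il1rn at 77.9 CPM, below it. In WT IMQ replicate 5, Il1rn was at 292 CPM, within the untreated range, and Il1b at 252 CPM, below every untreated WT mouse. Group means of Il1b reads per Il1rn read were 1.39 ± 0.212 in untreated WT, 1.48 ± 0.308 in untreated KO, 1.55 ± 1.32 in WT IMQ and 1.22 ± 0.487 in KO IMQ (SD, n = 5 each). The ratio ranged from 0.487 to 3.82 between WT IMQ mice and from 0.551 to 1.70 between KO IMQ mice, so that all 4 groups overlapped.

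Il1r2 (chr1:40074079-40125231, plus strand), which encodes the decoy receptor that binds IL-1 without signalling and whose promoter stretch held 2 E-boxes, stayed high in nearly every library. It lay between 187 and 345 CPM in untreated WT, between 263 and 365 in untreated KO, between 253 and 352 in WT IMQ and between 67.1 and 483 in KO IMQ. The KO IMQ group was thus the widest, with its lowest value in replicate 1 and its highest in replicate 4. The log2 fold change with IMQ was 0.17 in WT (95% interval −0.50 to 0.84) and −0.29 in KO (95% interval −0.97 to 0.38, adjusted p = 0.520), and without the 3 low libraries the latter was 0.08. Il1rap (chr16:26581704-26730117, plus strand), the accessory chain that the signalling receptor needs, was at 48.9 to 66.7 CPM in untreated WT, 60.8 to 81.4 in untreated KO, 26.6 to 79.4 in WT IMQ and 25.2 to 80.2 in KO IMQ. All of these ranges overlapped, with a log2 fold change of 0.06 in WT and of −0.48 in KO (standard error 0.25 for each, adjusted p = 0.165 in KO). Without KO IMQ replicate 4 the latter was −0.68 and was called (adjusted p = 0.0488).

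Nlrp3 (chr11:59541568-59566956, plus strand) encodes the sensor that assembles the inflammasome on loss of potassium, crystals or other damage. It was at 185, 221, 194, 234 and 239 CPM in untreated WT mice and at 187, 184, 260, 303 and 215 CPM in untreated KO mice. With IMQ it was at 78.9, 79.6, 15.4, 145 and 225 CPM in WT, and at 33.1, 94.1, 32.9, 80.5 and 16.1 CPM in KO. No KO IMQ mouse exceeded 94.1 CPM and no untreated mouse was below 184 CPM, while WT IMQ replicate 5 was inside the untreated range. In KO mice Nlrp3 fell by 2.16 on the log2 scale (standard error 0.50, adjusted p = 0.00894), from 230 ± 50.9 to 51.3 ± 33.9 CPM (SD, n = 5 each), and it too passed in 20 of 20 fits that left out a library. In WT its log2 fold change was −0.98 (standard error 0.49, adjusted p = 0.244), from 215 ± 24.2 to 109 ± 79.4 CPM (SD, n = 5 each).

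The effector genes of the inflammasome were not called in either genotype. Casp1 (chr9:5298517-5307265, plus strand), which encodes the protease that matures IL-1β and IL-18, was at 39.9 to 54.9 CPM in untreated WT, 38.0 to 51.1 in untreated KO, 32.8 to 83.1 in WT IMQ and 29.0 to 84.7 in KO IMQ. Its groups overlapped throughout, with a log2 fold change of 0.25 in WT (95% interval −0.24 to 0.75) and 0.09 in KO (95% interval −0.40 to 0.58). The latter was −0.18 without KO IMQ replicate 4. Gsdmd (chr15:75862327-75867408, plus strand), whose cleaved product opens pores in the membrane, had the smallest SD of log2 CPM of the 10 genes in every group except WT IMQ. It was at 142 to 155 CPM in untreated WT, 123 to 153 in untreated KO, 92.8 to 155 in WT IMQ and 79.8 to 157 in KO IMQ. Its log2 fold change was −0.11 in WT (95% interval −0.43 to 0.21) and −0.27 in KO (95% interval −0.58 to 0.05, adjusted p = 0.197), and without KO IMQ replicate 4 the latter was −0.39 and was called (adjusted p = 0.0449).

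Casp4 (chr9:5308828-5336783, plus strand) is the mouse gene of caspase-11, which senses cytosolic lipopolysaccharide and cleaves gasdermin D, and it is known to be induced by interferon. It was at 26.2, 26.9, 30.3, 27.1 and 29.9 CPM in untreated WT mice and at 32.2, 36.8, 37.9, 32.6 and 25.7 CPM in untreated KO mice. With IMQ it was at 69.7, 43.6, 28.6, 44.3 and 39.6 CPM in WT, and at 21.0, 35.3, 37.4, 82.3 and 34.8 CPM in KO. In WT, 4 of 5 IMQ mice were above every untreated mouse, whereas in KO only replicate 4 was. The log2 fold change in WT was 0.69 (standard error 0.27, adjusted p = 0.131), and it was 0.80 (adjusted p = 0.0355) without the 3 low libraries and 0.68 (adjusted p = 0.0492) without KO IMQ replicate 4, which takes no part in the WT comparison except through the shared estimate of the spread. In KO it was 0.35 (standard error 0.26, adjusted p = 0.327), and −0.01 without KO IMQ replicate 4.

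**Figure D2:**
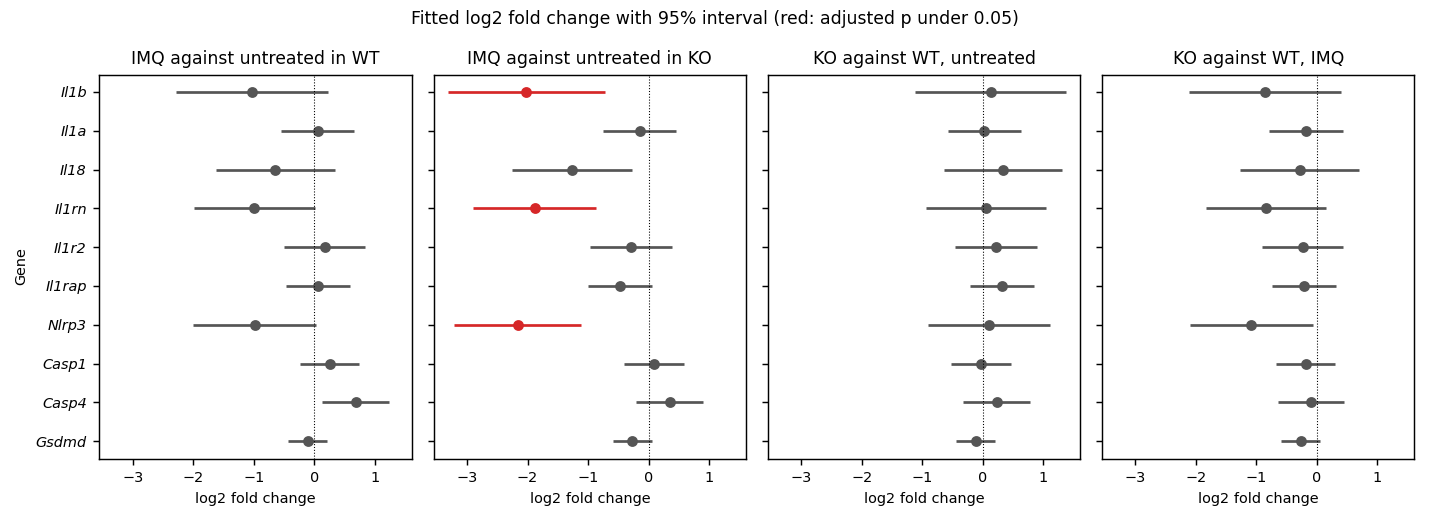
Fitted log2 fold change of each of the 10 genes (points) with its 95% interval (lines) in 4 comparisons from edgeR's quasi-likelihood fit. Red marks an adjusted p under 0.05, which only Il1b, Il1rn and Nlrp3 reached, in IMQ against untreated KO mice.

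Between the genotypes, none of the 10 genes was called. In untreated mice the log2 fold changes of KO against WT ran from −0.12 (Gsdmd) to 0.34 (Il18), 0 of 10 were called at an unadjusted p under 0.05 or by DESeq2, and 0.207% of all genes were called. No gene had genotypes that did not overlap, beside 1.52% of all genes. The 95% interval was −0.45 to 0.90 for Il1r2 and −0.52 to 0.47 for Casp1, the 2 genes with an E-box in their stretch, and it was −1.12 to 1.38 for Il1b.

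With IMQ the fitted fold change of KO against WT was below 0 for all 10 genes, although Il1r2 and Casp4 were above 0 without the 3 low libraries, and again 0 were called, beside 0.292% of all genes. None had groups that did not overlap, beside 1.07%. The log2 fold change was −1.08 for Nlrp3 (standard error 0.49, adjusted p = 0.244), −0.86 for Il1b (standard error 0.60, adjusted p = 0.369) and −0.84 for Il1rn (standard error 0.48, adjusted p = 0.294), and it lay between −0.10 and −0.29 for the other 7. Nlrp3 was the only gene of the 10 with an unadjusted p under 0.05 (0.0388), beside 2788 of all 14030 genes, and DESeq2 called 0 of the 10, beside 311 of all genes. These calls depended on WT IMQ replicate 3, the lowest of all libraries for Il1b, Il1rn and Nlrp3. Without it Nlrp3 was at −1.36 (adjusted p = 0.0269) and Il1rn at −1.12 (adjusted p = 0.0414), and both were called, whereas without the 3 low libraries they were at −0.91 (adjusted p = 0.167) and −0.63 (adjusted p = 0.240).

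The difference of the IMQ effect between genotypes was tested as an interaction, and 0 of the 10 genes and 0 of all genes (0%) were called, with 0 of 10 and 721 of all genes at an unadjusted p under 0.05 and 0 by DESeq2. The interaction was −1.18 for Nlrp3 (standard error 0.68, adjusted p = 0.640), −0.99 for Il1b (standard error 0.85, adjusted p = 0.654) and −0.89 for Il1rn (standard error 0.67, adjusted p = 0.642) on the log2 scale. The falls called in KO mice were therefore not shown to differ from the smaller differences in WT mice.

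Mice varied far more with IMQ than without it, in these genes and in others. The highest Il1b value of a group was 1.81 times the lowest in untreated WT and 1.65 times in untreated KO, but 33.2 times in WT IMQ and 12.1 times in KO IMQ. For Il1rn these ratios were 1.28, 1.36, 15.8 and 4.00, and for Nlrp3 they were 1.29, 1.64, 14.6 and 5.84. The SD of log2 CPM of Il1b was 0.352, 0.316, 2.1 and 1.45 in the 4 groups, while the median over all tested genes was 0.213, 0.192, 0.449 and 0.445. Il1a was an exception, with a highest value 1.60, 2.17, 1.52 and 2.76 times the lowest, as was Il1r2 in WT, at 1.84 times without and 1.39 times with IMQ.

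Late neutrophil markers were lower in KO IMQ, as were the 3 genes that fell, but in WT IMQ they did not always go together. The sum of the 10 late markers was 26279 to 33568 CPM in untreated WT, 26201 to 32665 in untreated KO, 8998 to 33385 in WT IMQ and 5829 to 24478 in KO IMQ. The lowest sum of WT IMQ was in replicate 3, which also had the lowest Il1b, Il1rn and Nlrp3 of the 20 libraries. WT IMQ replicates 1 and 4 had sums of 28111 and 33385 CPM, within the untreated WT range. Their Nlrp3 (78.9 and 145 CPM) and Il1rn (113 and 188 CPM) were nevertheless below every untreated mouse. The lowest sums of KO IMQ were in replicates 1 and 5. All KO IMQ sums were below all KO untreated sums, 2 of the 10 late markers (Csf3r and Ccl6) were called lower and none higher in KO, and their median log2 fold change was −0.82. Of 12 early markers, 2 were called higher in KO, the proliferation genes Mki67 and Top2a, and none lower. Beside these counts, 23.5% of all genes were called in KO in either direction. Of all genes 9.04% were called lower, and the rest of the 23.5%, the larger part, were called higher. In bulk samples, fewer cells of a type and less RNA per cell cannot be told apart, and the part of late markers in the falls of Il1b, Il1rn and Nlrp3 was not tested.

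Markers of other cells also differed between libraries. The sum of 15 monocyte and macrophage markers was 334 to 422 CPM in untreated WT and 382 to 502 in untreated KO. It was 249 to 535 in WT IMQ and 192 to 1788 in KO IMQ, with 1788 in replicate 1 and 691 in replicate 2. With IMQ in KO, 5 of the 15 (Ccr2, Ly86, F13a1, Ms4a6c and Fcgr1) were called higher and none lower. Of all genes, 23.5% were called in that comparison in either direction, 9.04% lower and the rest of the 23.5% higher. The list did not rise as a whole, since the means of Csf1r, Adgre1 and Cd68 were lower in KO IMQ, without a call. Mean Csf1r was 203 CPM in untreated KO and 99.5 CPM in KO IMQ, and mean Cd68 was 61.1 and 46.5 CPM. The 9 erythroid markers, of which the 4 globin genes were at 0 in every library, summed to 38.7 to 140 CPM in the untreated libraries, to 88.1 to 419 in WT IMQ, with 419 in replicate 3, and to 35.5 to 285 in KO IMQ, with 285 in replicate 5. Sums of 9 eosinophil markers were 37.9 to 123 CPM in untreated WT and 49.4 to 143 in untreated KO. They were 21.7 to 42.8 in WT IMQ and 43.8 to 213 in KO IMQ, so that the sums of the genotypes narrowly did not overlap with IMQ. Of the 9, 3 were called higher and 0 lower in KO against WT with IMQ, beside 0.292% of all genes called in either direction. Among all single genes, 1.07% had genotypes that did not overlap with IMQ. Means in WT IMQ and KO IMQ were 13.1 and 76.1 CPM for Prg2, but 9.67 and 9.34 for Siglecf, 5.53 and 4.89 for Ear2 and 0.504 and 0.522 for Ccr3. Sums of basophil and mast cell, B-lineage, and T and NK markers did not exceed 40.5 CPM in any library. In the fit without the 3 low libraries, Il1b, Il1rn and Nlrp3 were at −1.46, −1.41 and −1.73 in KO and were called. Those 3 libraries were left out after the data were seen. They also had the lowest Il1b of all libraries, at 8.97 CPM in WT IMQ replicate 3 and 41.6 and 17.4 CPM in KO IMQ replicates 1 and 5. The fit kept KO IMQ replicates 2, 3 and 4, with late marker sums of 23322, 16489 and 24478 CPM. These sums were still below the lowest of untreated KO, 26201 CPM. The monocyte marker sum of 691 CPM in replicate 2 was kept too. The fit was therefore no test of cell make-up. The part of other cells in the values of the 10 genes was not tested.

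**Figure D3:**
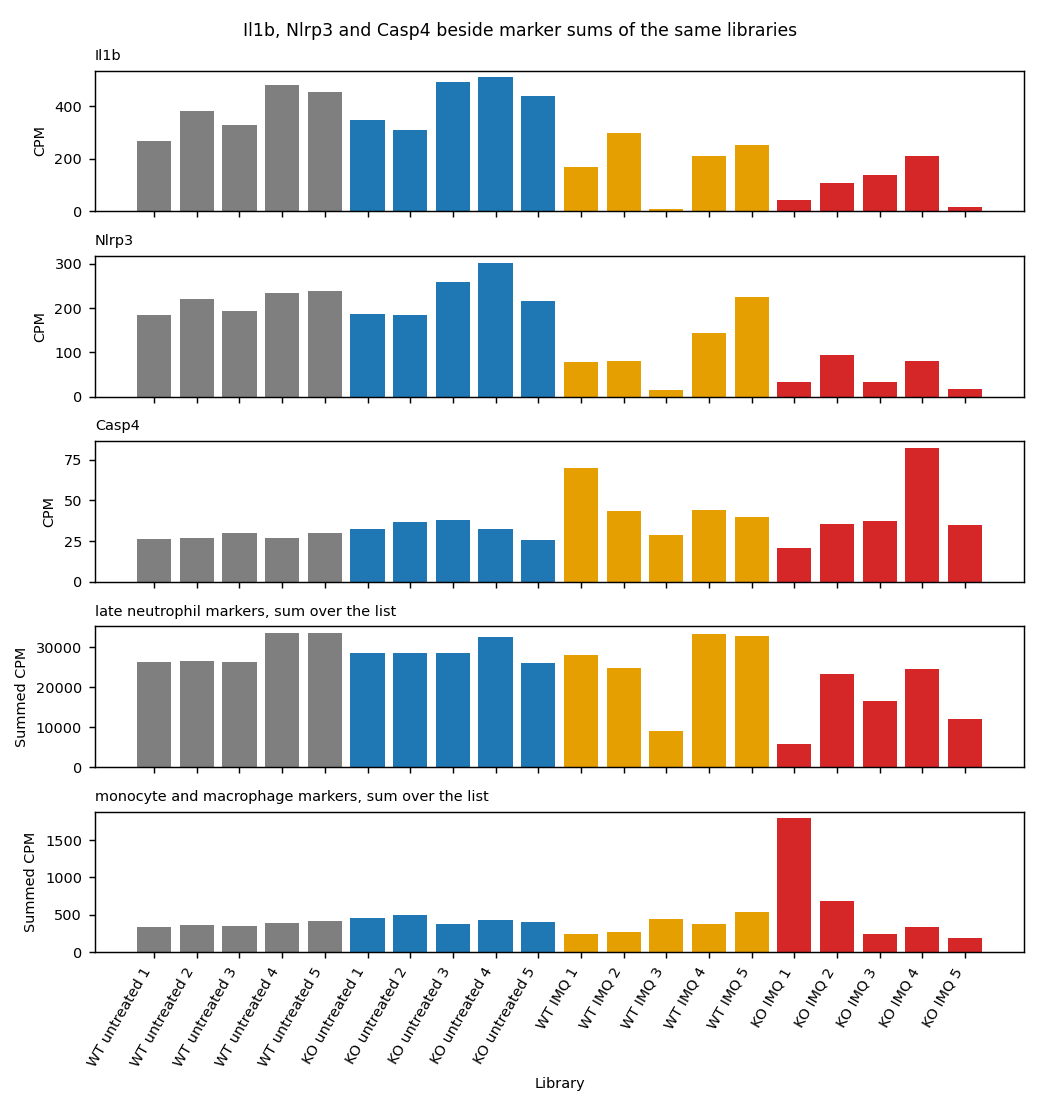
Il1b, Nlrp3 and Casp4 (CPM) in each of the 20 libraries, above the summed CPM of 10 late neutrophil markers and of 15 monocyte and macrophage markers in the same libraries. Bars are single mice, coloured by group, and start at 0. WT IMQ 3, KO IMQ 1 and KO IMQ 5 are low in Il1b and in the late markers, KO IMQ 1 is highest in monocyte markers, and WT IMQ 1 and KO IMQ 4 are highest in Casp4.

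Within groups, some of the 10 genes varied together from mouse to mouse. All genes of a library share its depth and cell make-up, which differed between libraries. Pearson's r was therefore computed only as a description, over the 20 libraries on log2 CPM centred on the group means. With Il1b it was 0.874 for Il1rn, 0.871 for Nlrp3 and 0.852 for Il18, which ranked 73, 84 and 152 among 14029 genes. It was 0.785 for Gsdmd, 0.769 for Il1rap, 0.736 for Casp1 and 0.552 for Casp4, and it was low for Il1r2 (0.356) and Il1a (0.0688). Among the other pairs the highest were Il1rn with Nlrp3 (0.942), Il18 with Nlrp3 (0.941) and Il1rap with Gsdmd (0.927). The ligand, the antagonist and the sensor thus varied together, and the decoy receptor and Il1a followed them least. IMQ-treated mice weigh most in these values, since the SD of log2 CPM of Il1b was 2.1 and 1.45 in WT IMQ and KO IMQ. It was 0.352 and 0.316 in untreated WT and KO. Il1a had only 22 to 87 reads, so that counting error may lower its r.

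The genes most like Il1b over all 14029 were Hcar2 (0.952), Il1bos (0.944), Nfkbid (0.942), Nfkbie (0.941), Socs3 (0.936), Ptgs2 (0.924), Polg2 (0.923), Ier3 (0.920), Clec7a (0.919) and Rell2 (0.916). Nfkbid and Nfkbie encode inhibitors of the NF-κB family, Socs3 a suppressor of cytokine signalling, Ptgs2 the enzyme COX-2, Hcar2 the receptor of niacin and Clec7a the β-glucan receptor Dectin-1. Il1bos lies on the opposite strand and shares 25 exon bases with Il1b, and the strand setting of the counting is not given in the sources used here, so that its reads may partly be those of Il1b.

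The wider pathway was taken as 57 listed genes, of which 49 were tested. With IMQ, 4 rose and 0 fell in WT and 11 rose and 4 fell in KO, beside the 3.95% and 23.5% of all genes called. By list, 1 of 8 other IL-1 family ligands and receptors rose and 1 fell in KO, 2 of 16 receptor signalling genes rose and 1 fell, and 8 of 25 other inflammasome genes rose and 2 fell. In WT the 4 that rose were all among the 25 inflammasome genes. Between the genotypes and in the interaction 0 were called, with 0 in untreated mice, 12 with IMQ and 2 in the interaction at an unadjusted p under 0.05, beside 307, 2788 and 721 of all 14030 genes. Left-out libraries moved these counts, to between 0 and 6 higher in WT and between 7 and 13 higher in KO, and without the 3 low libraries 8 were higher and 1 lower in WT and 7 higher and 2 lower in KO.

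Among the other inflammasome genes, the same 4 genes rose with IMQ in both genotypes. Pycard, the gene of the adaptor ASC, was at 25.2 to 31.9 CPM in untreated KO and at 47.5 to 75.5 in KO IMQ, without overlap, and its log2 fold change was 1.00 (standard error 0.17, adjusted p = 0.00460). In WT it rose from 30.4 ± 2.43 to 53.6 ± 14.9 CPM (SD, n = 5 each), by 0.82 (standard error 0.17, adjusted p = 0.0174), a call that was lost without WT untreated replicate 2 alone among the left-out libraries. Nlrc4, the sensor that NAIP proteins activate on bacterial flagellin, rose from 2.19 ± 0.317 to 8.57 ± 3.54 CPM (SD, n = 5 each) in KO, by 1.97 (standard error 0.39, adjusted p = 0.00550). In WT it rose by 1.70 (standard error 0.38, adjusted p = 0.0226), although this call held in only 14 of 20 fits that left out a library. Without the 3 low libraries Nlrc4 was at 1.20 in WT and 1.59 in KO, still called in both. Naip6 rose by 0.70 in WT (standard error 0.13, adjusted p = 0.0112) and by 0.36 in KO (standard error 0.13, adjusted p = 0.0485, and 0.0774 with the replicate block). Its call in KO held in only 13 of 20 fits that left out a library. As Naip6 belongs to a family of near-identical genes, its count is uncertain. Serpinb1a, which encodes an inhibitor of neutrophil serine proteases, rose by 0.87 in WT (standard error 0.21, adjusted p = 0.0307, but 0.0639 with the replicate block, and held in 11 of 20 fits that left out a library) and by 0.87 in KO (standard error 0.21, adjusted p = 0.0110).

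In KO mice only were 8 more genes of the rule called, and the difference between genotypes was not shown for them, since 0 pathway genes passed the interaction test. Ripk3, the kinase of necroptosis, rose by 1.53 (standard error 0.33, adjusted p = 0.00693) and Casp8, which restrains necroptosis, by 0.73 (standard error 0.17, adjusted p = 0.00917). Il1rl2, the receptor of IL-36, rose by 1.11 from 1.44 ± 0.207 to 3.11 ± 1.02 CPM (SD, n = 5 each, adjusted p = 0.00734), and Ube2n, a ubiquitin-conjugating enzyme of the receptor pathway, by 0.39 (adjusted p = 0.0171). These 4 rises, and the fall of Ninj1, held in 20 of 20 fits that left out a library. Ninj1, whose product ruptures the membrane late in pyroptosis, fell by 1.32 (standard error 0.36, adjusted p = 0.0162), from 104 ± 21.4 to 41.5 ± 19.9 CPM (SD, n = 5 each). Nlrp12, an NLR protein of neutrophils known to dampen NF-κB signalling, fell by 1.38 (standard error 0.44, adjusted p = 0.0310), Il1rl1, the receptor of IL-33, by 0.72 (standard error 0.23, adjusted p = 0.0298) and Irak2, a kinase of the receptor complex, by 0.69 (standard error 0.22, adjusted p = 0.0308). These last 3 were each lost in 5 to 7 of the 20 fits that left out a library. Without the 3 low libraries the calls of Il1rl1 (adjusted p = 0.140), Irak2 (adjusted p = 0.0502), Ube2n (adjusted p = 0.0627) and Naip6 (adjusted p = 0.136) in KO were lost. Ripk3, Ninj1 and Nlrp12 were still called in KO without them, with smaller log2 fold changes of 1.11, −0.96 and −0.94. Outside the rule, and named after their values were seen, Nlrp10, Brcc3 and Map3k7 also rose in KO, by 3.98, 0.72 and 0.30 (adjusted p = 0.0419, 0.0434 and 0.0426), of which Nlrp10 was at no more than 1.96 CPM in any KO library. These calls held in only 11 (Nlrp10), 13 (Brcc3) and 15 (Map3k7) of the 20 fits that left out a library. With the replicate block Nlrp10 (adjusted p = 0.0957) and Map3k7 (adjusted p = 0.0672) were not called, and without the 3 low libraries Brcc3 was at 0.36 (adjusted p = 0.233) and Map3k7 at 0.19 (adjusted p = 0.227).

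**Figure D4:**
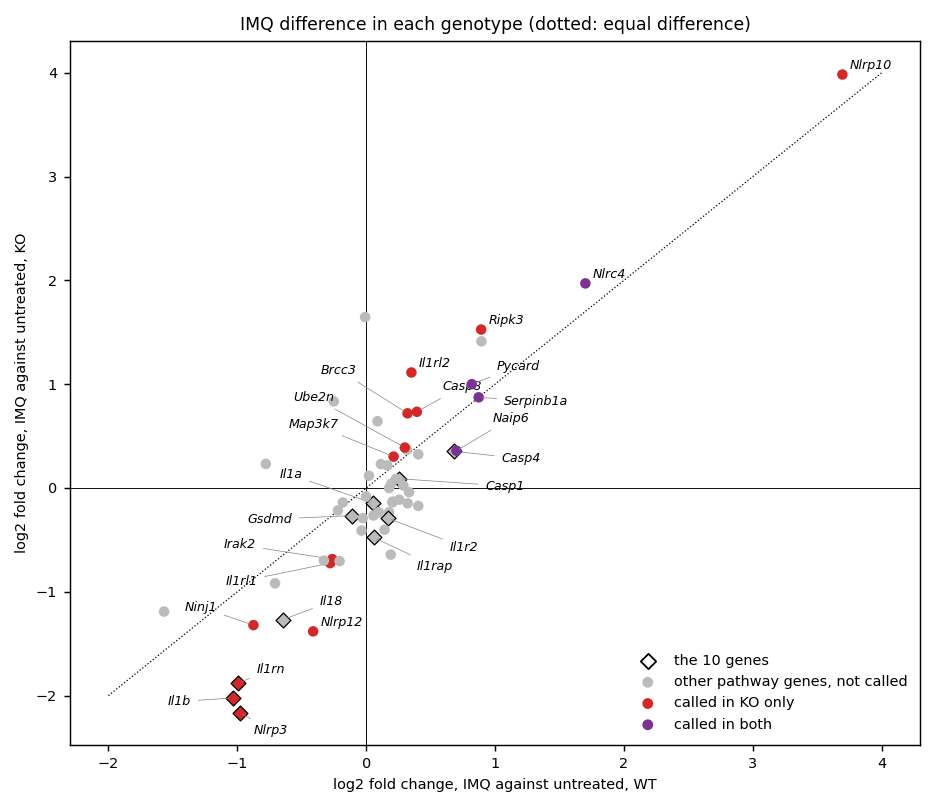
Log2 fold change with IMQ in WT mice (horizontal) against that in KO mice (vertical) for the 10 genes (diamonds) and 49 other pathway genes (circles). Red marks genes called in KO and not in WT, purple those called in both, and the dotted line equal differences. Il1b, Il1rn and Nlrp3 lie near −1 in WT and near −2 in KO, and Pycard and Nlrc4 lie near the line on the upper right.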

How the data were processed

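Reads were counted on genes by the authors, and the deposited files hold these raw counts without scaling, for 24421 genes and 5 summary lines, which were left out. The submitters' processing notes name STAR 2.7.8a, HTSeq 2.0.1 and mm10, while the study's methods name TopHat on Read 1 and mm10; annotation and strand setting are not given in the sources used here. The methods name 2 sequencers and do not assign libraries to them, which left no batch to fit.

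Counts were fitted for all 4 groups at once with edgeR 4.0.16 in R 4.3.3 (quasi-likelihood test, TMM factors from 0.854 to 1.38, low counts filtered to 14030 genes, Benjamini-Hochberg adjustment, threshold 0.05). Intervals are 95% intervals of the fit. Pairs of libraries from 1 group had a chi-square of 18.2 to 787 times its degrees of freedom, so no library was a duplicate, and spread between mice far exceeded counting error. Gene positions are from GENCODE M21 (mm10). The script was tested on simulated data.

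The 10 genes and all lists were chosen with earlier results of these data known. Named besides the 10 were up to 12 other pathway genes with the smallest adjusted p among those called, and the 10 genes most like Il1b.

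Alternatives were RLE factors, DESeq2 1.42.0, limma 3.58.1 on log2(CPM + 0.1), which comes closest to the authors' analysis of variance, no filter, at least 10 counts in every library, only the 2 groups compared, the replicate number as a block, counts thinned to the smallest library and each library left out in turn. Leaving out WT IMQ replicate 3 and KO IMQ replicates 1 and 5 together was added after the data were seen. The block was an additive term in the fit of all 20 libraries, and the labels do not say that mice with the same number belong together. Libraries with the same number were correlated over genes in their deviations from the group means. The 5 correlations were 0.128 to 0.426 between untreated and IMQ-treated KO mice, where alone all passed the rule used (above 0.1). They were 0.0728 to 0.384 in WT, −0.441 to 0.206 between untreated and −0.497 to 0.343 between IMQ-treated genotypes.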

Additional observations from a re-analysis of the deposited data

Results flagged for a closer look

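Casp4 in KO IMQ replicate 4 was at 82.25 CPM, far above the other 4 mice of its group, which lay between 21.0 and 37.4 CPM. It was the only value set apart in this way by a Dixon test over 40 groups, 4 for each of the 10 genes, and chance sets apart about 1 in 20 groups. Afterwards, with the values in view, Ifit3 and Rsad2, which interferon induces, were looked up. In KO IMQ replicate 4 they were at 433 and 1019 CPM, and in WT IMQ replicate 1, which had the highest Casp4 of its group (69.7 CPM), at 416 and 826 CPM. In the other IMQ-treated mice Ifit3 was at 1.19 to 5.22 CPM in KO and at 12.3 to 23.7 CPM in WT, and in the 10 untreated mice at 15.6 to 51.4 CPM. Rsad2 was at 21.0 to 99.2 CPM in those KO mice, at 130 to 192 CPM in those WT mice and at 74.7 to 192 CPM in the untreated mice. The part of these genes in the Casp4 values was not tested.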

How the results depend on the processing

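Il1rn and Nlrp3 were called lower with IMQ in KO mice under every alternative named above, the 20 left-out fits included, at −2.11 to −1.68 and −2.48 to −1.93 in those 20. Il1b was called in 17 of 20, at −2.43 to −1.75. With single libraries left out, the number of the 10 genes called was 0 to 1 for IMQ in WT, 2 to 6 for IMQ in KO (6 without KO IMQ replicate 4), 0 to 2 for KO against WT with IMQ, and 0 in untreated mice and in the interaction; without WT IMQ replicate 3 and KO IMQ replicates 1 and 5 it was 2 for IMQ in WT. With the replicate block it was 4 for IMQ in KO and 0 in the other comparisons, and apart from Il18 the block changed no call of the 10 genes. Il18 in KO was also called by DESeq2 (−1.29), by limma (−1.34), with at least 10 counts in every library (−1.28), after thinning (−1.38) and without WT IMQ replicate 3 (−1.26) or KO IMQ replicate 4 (−1.64).

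Signs turned only among small, uncalled differences. For IMQ in WT, limma gave −0.0057 for Il1a and −0.085 for Il1rap, and thinning −0.028 for Il1a. Left-out libraries gave Il1a −0.037 to 0.13 and Il1rap −0.075 to 0.24. For IMQ in KO, Il1r2 was 0.078 without the 3 libraries, and left-out libraries gave Casp1 −0.18 to 0.23, Casp4 −0.015 to 0.54 and Il1a −0.38 to 0.013. For KO against WT untreated, thinning gave −0.10 for Il1a, and left-out libraries gave Il1a −0.11 to 0.14, Il1rn −0.0071 to 0.085, Nlrp3 −0.022 to 0.17 and Casp1 −0.083 to 0.020. For KO against WT with IMQ, limma gave 0.0071 for Casp4, the fit without the 3 libraries 0.11 for Il1r2 and 0.088 for Casp4, and left-out libraries gave Casp1 −0.47 to 0.0032, Casp4 −0.48 to 0.12 and Il1r2 −0.59 to 0.020. In the interaction, limma gave 0.024 for Gsdmd and left-out libraries gave Casp1 −0.43 to 0.046. The causes were not tested.

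Counts over all genes moved far more. For IMQ in WT, 554 became 1480 by DESeq2, 326 without a filter, 186 with only the 2 groups, 190 with the block, 1236 without the 3 libraries and 48 to 1989 with single libraries left out. For IMQ in KO, 3292 became 2037 without the 3 libraries and 1612 to 4499 with single ones. For KO against WT, 29 untreated became 59 with only the 2 groups, and 41 with IMQ became 311 by DESeq2, 16 with only the 2 groups and 20 to 3129 with single libraries left out. Of the other pathway genes for IMQ, 4 higher in WT became 1 by limma or with only the 2 groups and 8 without the 3 libraries, and 11 higher in KO became 7 without a filter.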
